A study of Arabidopsis thaliana with 9 samples.

Results

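The 10 genes described here encode tau-class glutathione transferases. They are the 7 genes *GSTU1* (AT2G29490), *GSTU2* (AT2G29480), *GSTU3* (AT2G29470), *GSTU4* (AT2G29460), *GSTU5* (AT2G29450), *GSTU6* (AT2G29440) and *GSTU7* (AT2G29420) of a tandem cluster on chromosome 2, together with *GSTU8* (AT3G09270) on chromosome 3, and *GSTU19* (AT1G78380) and *GSTU24* (AT1G17170) on chromosome 1. They were picked by gene identifier out of 28642 genes in the table, of which 28 were listed as tau-class genes. The set was chosen from these same libraries, with the read counts of both mutants against the wild type already known, so the values of those comparisons are given as a description and nothing is read from them.

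RNA was sequenced from shoots of 2-week-old Arabidopsis thaliana seedlings grown on MS medium of less than full strength with 1% sucrose. The seedlings were kept for 48 h in darkness and then for 6 h in light of 100 µmol photons m-2 s-1. There were 3 libraries of each of 3 genotypes. The *vtc2-4* mutant (SAIL_769_H05) carries a T-DNA in the third exon of *VTC2*, which encodes GDP-L-galactose phosphorylase, the rate-limiting enzyme of ascorbate synthesis. The *vtc3-3* mutant (SALK_095743) carries a T-DNA in the seventh exon of *VTC3*, which encodes a protein with predicted kinase and phosphatase domains, and the wild type was Col-0. The labels give the mutants as vtc2 and vtc3, and the alleles are those named in the study's methods. Each mutant is a single insertion line without a complemented line among these libraries, and p-values measure the spread between these libraries. The methods describe a replicate of plate-grown plants as a pool of the shoots of at least 10 plants, a statement not repeated for the RNA-seq libraries.

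Glutathione transferases join the tripeptide glutathione to reactive or foreign molecules, after which the conjugate is moved into the vacuole. In plants, the tau and phi classes are the large families known for herbicide and xenobiotic detoxification, and many tau genes are induced by oxidative stress, auxin, salicylic acid or oxylipins. TGA transcription factors, which bind the as-1 element with its TGACG core, are known to take part in that induction. *GSTU19* is an abundant tau enzyme with high activity towards the model substrate chlorodinitrobenzene. *GSTU24* conjugates the explosive trinitrotoluene, and *GSTU7* has been studied for its part in tolerance of the superoxide-generating herbicide methyl viologen. The substrates of *GSTU1* to *GSTU6* and *GSTU8* in the plant are less well defined.

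The libraries held between 4399733 and 7567492 reads assigned to genes, of which about 98% were uniquely mapped. The targeted genes matched the labels. *VTC2* had 42.1, 43.2 and 32.2 normalized counts (reads scaled to a common library size) in *vtc2-4*, against 3084, 4680 and 4692 in the wild type, and *VTC3* had 26.0, 23.5 and 16.6 in *vtc3-3*, against 81.4, 114 and 115 in the wild type. The 4 shoot markers *RBCS1A*, *CAB1*, *LHCB2.1* and *RCA* summed to between 56480 and 173498 reads per library, whereas of the root markers *COBL9* and *EXPA7* had 0 reads in all libraries, *CASP1* at most 2 and *CASP2* at most 4. Wild-type replicate 1 differed from all the others in a trend with transcript length. Among 1455 tested genes with exons of 820 to 1003 bases in total, the range of the 10 tau genes, its median deviation from the gene-wise median of all libraries was 0.64 on the log2 scale, against -0.01 to 0 in the other libraries. Among 5328 tested genes longer than 2000 bases, its median deviation was -0.43. Its intron reads made up 1.62% of gene reads, against 1.12 to 1.26% elsewhere. The fold changes of the 10 genes against the wild type are therefore given with all 9 libraries and without this library.

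The tau genes have closely similar coding sequences, so it was first asked whether their reads could be told apart. In the TAIR10.1 genome, coding lengths were 657 to 684 bases, in 2 exons each. Nucleotide identity among the 21 pairs of cluster genes ranged between 66.5 and 85.9%, with a median of 75%. *GSTU1* and *GSTU2* were the closest pair at 85.9%, followed by *GSTU5* and *GSTU6* at 84.1% and *GSTU2* and *GSTU4* at 84.0%, while *GSTU19* and *GSTU24* shared 77.2%. The longest identical stretch between any of the 45 pairs was 42 bases, in *GSTU2* and *GSTU4*, and the longest between *GSTU1* and *GSTU2* was 35 bases. These stretches are printed because a read lying wholly inside one could not be placed, whereas a longer read reaches bases that differ.

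GSTU2 (chr2:12630995-12631036, minus strand) and GSTU4 (chr2:12627363-12627404, minus strand), TAIR10.1:
shared run: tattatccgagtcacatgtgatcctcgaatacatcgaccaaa
GSTU1 (chr2:12632319-12632353, minus strand) and GSTU2 (chr2:12631191-12631225, minus strand), TAIR10.1:
shared run: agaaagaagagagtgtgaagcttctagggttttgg

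None of the 50-base windows of the 10 coding sequences occurred exactly at another place in the genome, on either strand. Among the 10 genes this follows from the longest shared run of 42 bases. Windows across an exon junction were searched as spliced sequence, so they could not match a gene with an intron there. Untranslated bases and near matches were not searched. In the deposited counts, total and uniquely mapped gene reads were equal for all 10 genes in all 9 libraries, a difference of 0 reads, although the totals differed for 1750 genes of the table. Reads placed at more than 1 site are thus not part of the counts below. Reads of overlapping transcripts may be, because the library kit does not mark strand and whether counting took strand into account is not stated in the sources used here. In TAIR10.1, *GSTU7* is overlapped by an antisense RNA (AT2G08340) and by the end of *MTPB1*, *GSTU2* by the opposite-strand gene AT2G29485 and *GSTU6* by the opposite-strand gene AT2G29430.

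The cluster spans chr2:12617936-12632473 in the deposited positions, 14538 bases with all 7 genes on the minus strand. Spaces between neighbouring genes ran between 654 and 3437 bases, except between *GSTU2* and *GSTU1*, where only 56 bases separated the deposited gene models. In TAIR10.1 the space is 19 bases (chr2:12631322-12631340), so that *GSTU2* starts almost directly behind the end of *GSTU1*. It is printed on the minus strand to show how little sequence lies between these 2 genes.
between GSTU1 and GSTU2: tgtcttttttttttttttt

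The 250 bases upstream of each TAIR10.1 gene start were searched for the as-1 core, TGACG, on both strands (CGTCA on the printed strand). At least 1 match was found for 6 of the 10 genes (60.0%), against 18.6% of the same window over 27443 protein-coding genes. At least 2 matches were found for 20.0% of the 10 genes, which are *GSTU1* and *GSTU7*, against 3.21% of all. The matches of *GSTU1* began 77 and 65 bases before the gene start, and those of *GSTU7* 61, 52 and 49 bases before it, the last pair overlapping in the palindrome TGACGTCA. *GSTU3*, *GSTU5*, *GSTU6* and *GSTU24* had 1 match each, the windows of *GSTU5* and *GSTU24* overlapping a neighbouring gene model, and *GSTU2*, *GSTU4*, *GSTU8* and *GSTU19* had none. Both windows with more than 1 match are printed, with the matches in capitals. The *GSTU7* window overlaps the annotated RNA AT2G00850. The upstream window of *GSTU2* is mostly *GSTU1* itself and is not printed.

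GSTU1 (chr2:12632539-12632788, minus strand, TAIR10.1): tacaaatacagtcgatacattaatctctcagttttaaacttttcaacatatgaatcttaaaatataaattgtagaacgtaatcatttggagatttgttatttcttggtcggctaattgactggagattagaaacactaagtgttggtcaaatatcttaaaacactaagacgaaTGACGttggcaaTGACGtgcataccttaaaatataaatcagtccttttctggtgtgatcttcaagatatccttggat
GSTU7 (chr2:12618900-12619149, minus strand, TAIR10.1): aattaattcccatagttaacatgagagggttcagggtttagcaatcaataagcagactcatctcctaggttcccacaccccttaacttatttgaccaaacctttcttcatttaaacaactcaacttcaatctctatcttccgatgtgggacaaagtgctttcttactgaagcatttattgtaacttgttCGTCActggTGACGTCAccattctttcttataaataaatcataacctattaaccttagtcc

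A match is a description of these letters and not of binding. *GSTU3*, at no more than 1 read per library, also held one, and *GSTU19*, the gene with the most reads of the 10, held none. Genes of the xenobiotic and oxylipin detoxification list had a match in 9 of 17 windows (52.9%), other tau genes in 5 of 18 (27.8%) and phi genes in 3 of 13 (23.1%).

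Levels were next compared between the genes on the deposited RPKM scale (reads per kilobase of exon, scaled for mapped reads), which takes account of length. *GSTU19* was the highest, with 431, 470 and 410 RPKM in *vtc2-4*, 512, 497 and 496 in *vtc3-3* and 1056, 524 and 496 in the wild type. *GSTU5* followed, with 223, 220 and 240 RPKM in *vtc2-4*, 227, 209 and 246 in *vtc3-3* and 642, 231 and 248 in the wild type. Within each mutant these 2 genes did not overlap with each other, whereas in the wild type *GSTU5* in replicate 1 lay above *GSTU19* in replicates 2 and 3. Neither overlapped with any of the other 8 within a genotype. *GSTU5* alone supplied 63.3 to 81.6% of the reads of the cluster in a library, and *GSTU19* 29.3 to 35.1% of all tau-class reads.

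*GSTU7* and *GSTU24* came next and overlapped with each other in every genotype. *GSTU7* had 31.2, 41.8 and 27.3 RPKM in *vtc2-4*, 41.3, 49.5 and 35.6 in *vtc3-3* and 113, 71.2 and 50.7 in the wild type. *GSTU24* had 38.6, 31.1 and 24.5 RPKM in *vtc2-4*, 40.2, 47.0 and 39.9 in *vtc3-3* and 68.4, 51.2 and 46.2 in the wild type. *GSTU1* lay below both in either mutant, at 21.4, 23.7 and 19.0 RPKM in *vtc2-4* and 21.1, 19.5 and 16.3 in *vtc3-3*, and overlapped with both in the wild type, at 85.0, 37.0 and 28.6.

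The remaining genes were lower and more variable. *GSTU4* had 20.9, 5.79 and 6.21 RPKM in *vtc2-4*, 11.2, 16.4 and 23.1 in *vtc3-3* and 44.3, 17.6 and 8.49 in the wild type, overlapping with *GSTU1* in every genotype. *GSTU8* had 5.18, 2.09 and 1.69 RPKM in *vtc2-4*, 3.86, 4.74 and 6.64 in *vtc3-3* and 16.3, 5.30 and 2.00 in the wild type. *GSTU2* had 1.40, 0.58 and 0.15 RPKM in *vtc2-4*, 1.81, 2.24 and 1.67 in *vtc3-3* and 5.40, 4.77 and 3.41 in the wild type. *GSTU8* and *GSTU2* were thus separate in both mutants and overlapped in the wild type.

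*GSTU6* and *GSTU3* were near the limit of detection. On the same scale *GSTU6* had 0.28 to 1.98 RPKM over the 9 libraries, overlapping with *GSTU2* in *vtc2-4* only. It had 11, 6 and 2 reads in *vtc2-4*, 7, 3 and 1 in *vtc3-3* and 7, 5 and 8 in the wild type, and the 3 genotypes overlapped. *GSTU3* had 1, 0 and 0 reads in *vtc2-4*, 1, 1 and 0 in *vtc3-3* and 0, 0 and 0 in the wild type, so that no difference was detectable at this depth (a count of 0 allows up to 3 reads). Both failed the filter on low counts, and the other 8 genes were tested. The neighbours in the cluster differed widely in level, since *GSTU5* and *GSTU6* lie next to each other and share 84.1% of their coding bases, yet had 13859 and 50 reads over the 9 libraries.

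**Figure D1:**
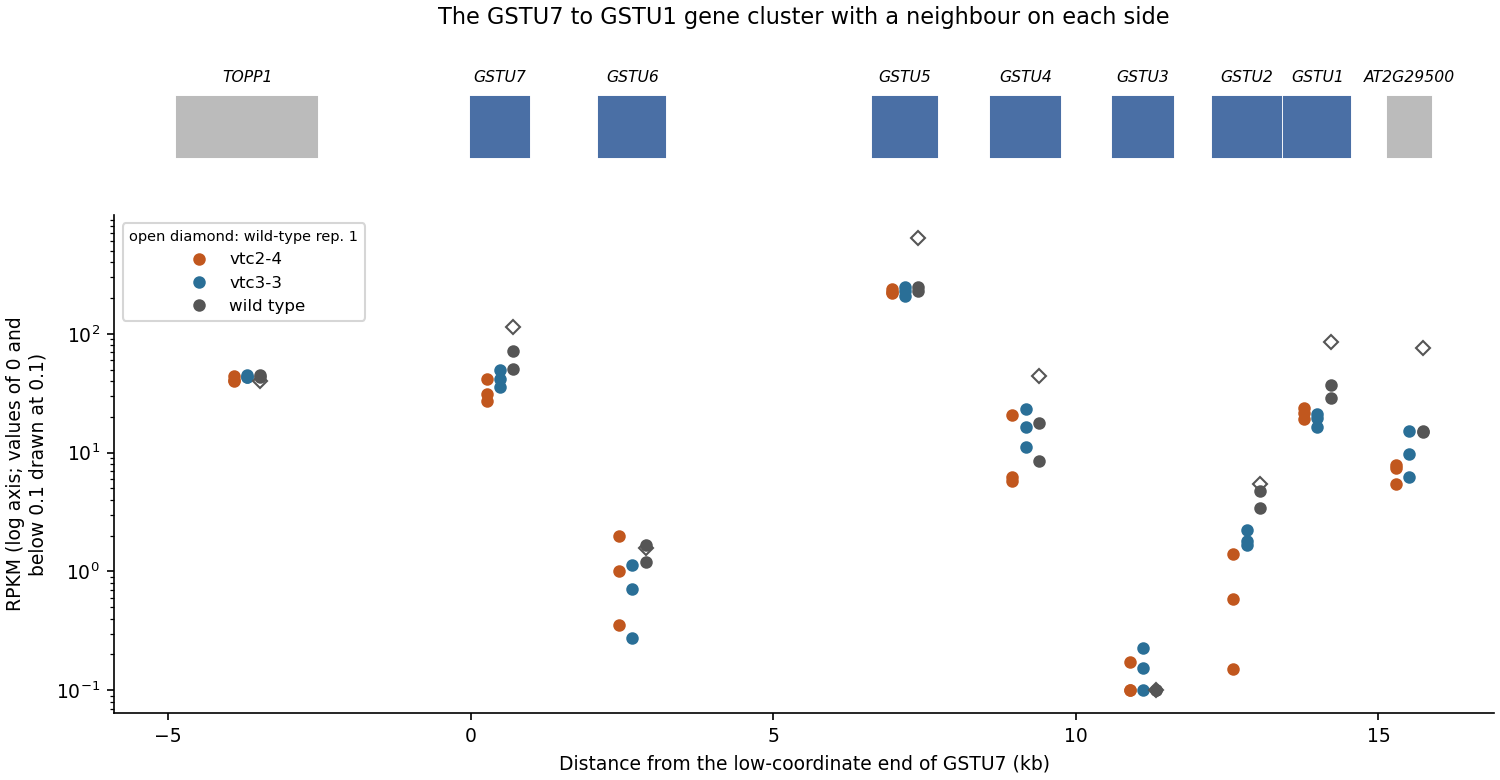
RPKM (log axis) of the 7 cluster genes and of a neighbouring gene on each side, plotted at their position in kb from the low-coordinate end of *GSTU7*. Each point is 1 library, coloured by genotype from left to right *vtc2-4*, *vtc3-3* and wild type, with wild-type replicate 1 as an open diamond. *GSTU5* stands highest at 209 to 642 RPKM, *GSTU3* is the lowest with *GSTU2* and *GSTU6* next, and *TOPP1* shows little difference between libraries.

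The comparison of *vtc2-4* with the wild type asks which transcripts differ when ascorbate synthesis is limited at its main step. All 8 tested tau genes had a negative log2 fold change, with a median of -1.15, against -0.01 over all 17388 genes tested and -0.24 over the 1455 genes of the same exon length. Only *GSTU2* passed an adjusted p of 0.05 (edgeR quasi-likelihood test, Benjamini-Hochberg over all genes), 1 of 8, whereas 0.173% of all genes passed lower and 0.426% passed higher. Of the 8 genes, 5 had an unadjusted p under 0.05, as did 9.9% of all genes. DESeq2, edgeR's exact test and limma voom with library quality weights called 4 each (*GSTU1*, *GSTU2*, *GSTU7* and *GSTU24*), where 0.729%, 0.633% and 2.8% of all genes passed lower by these tools. The limma voom weight was 0.045 for wild-type replicate 1 and 1.29 to 1.74 for the other libraries. That fit thus gives this library little part in the result. Without wild-type replicate 1 the median was -0.46, against 0.01 over all genes, and 5 of the 8 genes passed lower: *GSTU1*, *GSTU2*, *GSTU7*, *GSTU19* and *GSTU24*. In that fit 3.01% of all genes passed lower and 3.03% higher. The same 5 genes were the ones whose 3 *vtc2-4* libraries all lay below the 3 wild-type libraries in normalized counts, which 8.14% of all tested genes did. These counts used the comparison on which the set was chosen, and the 2 mutants share the wild-type libraries.

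*GSTU2* had the largest log2 fold change of the 8 in *vtc2-4*. It had 9, 4 and 2 reads in *vtc2-4*, 13, 11 and 8 in *vtc3-3* and 29, 23 and 21 in the wild type. In normalized counts these were 8.07, 3.39 and 1.74 in *vtc2-4*, 10.3, 12.9 and 11 in *vtc3-3* and 31.5, 27.6 and 21.9 in the wild type, so that the 3 genotypes formed separate groups. In *vtc2-4* the log2 fold change was -2.59 ± 0.41 (SE, adjusted p = 0.027), and -2.46 ± 0.44 (adjusted p = 0.0010) without wild-type replicate 1. The value rests on 15 reads in *vtc2-4*, and the call was made in 15 of 23 alternatives. It was lost with exon reads, with *vtc2-4* and the wild type fitted alone, and when any of 6 single libraries was left out. In *vtc3-3* the log2 fold change was -1.24 ± 0.37 (adjusted p = 0.63), and -1.12 ± 0.38 (adjusted p = 0.29) without wild-type replicate 1.

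*GSTU1* had 149, 174 and 134 reads in *vtc2-4*, 162, 104 and 73 in *vtc3-3* and 470, 193 and 170 in the wild type. The normalized counts were 134, 147 and 117 in *vtc2-4*, 128, 122 and 101 in *vtc3-3* and 510, 232 and 177 in the wild type. Both mutants lay below all wild-type libraries and overlapped with each other, and wild-type replicate 1 was 2.49 times the mean of the other 2 wild-type libraries. The log2 fold change in *vtc2-4* was -1.21 ± 0.34 (adjusted p = 0.23) with all libraries and -0.62 ± 0.13 (adjusted p = 0.0065) without wild-type replicate 1. In *vtc3-3* it was -1.38 ± 0.34 (adjusted p = 0.63) and -0.78 ± 0.14 (adjusted p = 0.0088).

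*GSTU7* had 190, 277 and 174 reads in *vtc2-4*, 282, 233 and 149 in *vtc3-3* and 562, 334 and 277 in the wild type. In normalized counts the values were 170, 235 and 152 in *vtc2-4*, 222, 274 and 206 in *vtc3-3* and 610, 401 and 289 in the wild type. Here too both mutants lay below the wild type, and the mutants overlapped. The log2 fold change in *vtc2-4* was -1.22 ± 0.27 (adjusted p = 0.11) with all libraries and -0.88 ± 0.16 (adjusted p = 0.0010) without wild-type replicate 1, and in *vtc3-3* it was -0.89 ± 0.27 (adjusted p = 0.63) and -0.55 ± 0.16 (adjusted p = 0.14).

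*GSTU24* had 226, 194 and 147 reads in *vtc2-4*, 261, 209 and 150 in *vtc3-3* and 321, 223 and 233 in the wild type. The normalized counts were 203, 164 and 128 in *vtc2-4*, 206, 246 and 207 in *vtc3-3* and 348, 268 and 243 in the wild type. The *vtc2-4* libraries lay below both other genotypes, and *vtc3-3* overlapped with the wild type by 1 library. Set against the wild type, *vtc2-4* had a log2 fold change of -0.80 ± 0.20 (adjusted p = 0.16), and -0.63 ± 0.14 (adjusted p = 0.0075) without wild-type replicate 1. In *vtc3-3* it was -0.38 ± 0.20 (adjusted p = 0.63) and -0.22 ± 0.14 (adjusted p = 0.71).

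*GSTU19* had 2899, 3394 and 2828 reads in *vtc2-4*, 3859, 2556 and 2171 in *vtc3-3* and 5732, 2644 and 2893 in the wild type. Normalized, it had 2599, 2876 and 2463 counts in *vtc2-4*, 3045, 3005 and 2995 in *vtc3-3* and 6221, 3175 and 3017 in the wild type. Apart from wild-type replicate 1, its libraries lay within a 1.29-fold range, the *vtc2-4* libraries being the low ones. In *vtc2-4* the log2 fold change was -0.65 ± 0.25 (adjusted p = 0.44) with all libraries and -0.22 ± 0.06 (adjusted p = 0.035) without wild-type replicate 1. In *vtc3-3* it was -0.46 ± 0.25 (adjusted p = 0.63) and -0.04 ± 0.06 (adjusted p = 0.93).

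*GSTU5*, the main gene of the cluster, had 1410, 1496 and 1561 reads in *vtc2-4*, 1609, 1015 and 1018 in *vtc3-3* and 3288, 1099 and 1363 in the wild type. In normalized counts it had 1264, 1268 and 1359 in *vtc2-4*, 1269, 1193 and 1404 in *vtc3-3* and 3568, 1320 and 1421 in the wild type. The genotypes overlapped, and without wild-type replicate 1 its 8 libraries lay within a 1.19-fold range. The log2 fold change in *vtc2-4* was -0.70 ± 0.33 (adjusted p = 0.51) with all libraries and -0.08 ± 0.07 (adjusted p = 0.60) without that library, and in *vtc3-3* it was -0.71 ± 0.33 (adjusted p = 0.63) and -0.09 ± 0.07 (adjusted p = 0.77). The ratio of *GSTU1* to *GSTU5* within a library does not depend on the scaling between libraries, but the counts of both were known when the set was chosen. It was 10.6, 11.6 and 8.58 *GSTU1* reads per 100 *GSTU5* reads in *vtc2-4*. In *vtc3-3* it was 10.1, 10.2 and 7.17, against 14.3, 17.6 and 12.5 in the wild type. The mutants lay below the wild type in this ratio, wild-type replicate 1 included, and how often other gene pairs separate in this way was not counted. The same ratio for *GSTU7* was 13.5, 18.5 and 11.1 in *vtc2-4* and 17.5, 23 and 14.6 in *vtc3-3*, against 17.1, 30.4 and 20.3 in the wild type, where the genotypes overlapped.

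*GSTU4* and *GSTU8* differed widely between replicates. *GSTU4* had 128, 38 and 40 reads in *vtc2-4*, 77, 77 and 92 in *vtc3-3* and 222, 82 and 45 in the wild type. *GSTU8* had 30, 13 and 10 reads in *vtc2-4*, 27, 21 and 25 in *vtc3-3* and 77, 24 and 10 in the wild type. Within *vtc2-4* the highest normalized count was 3.56 times the lowest for *GSTU4* and 3.09 times for *GSTU8*, against 1.08 times for *GSTU5* and 1.17 times for *GSTU19* in the same libraries. The ratio was higher still for *GSTU2* (4.63) and *GSTU6* (5.66), which had 15 and 19 reads in the 3 *vtc2-4* libraries. In *vtc2-4* the log2 fold change was -1.09 ± 0.62 for *GSTU4* (adjusted p = 0.54) and -1.40 ± 0.67 for *GSTU8* (adjusted p = 0.51), and without wild-type replicate 1 it was -0.25 ± 0.42 and -0.31 ± 0.46 (adjusted p = 0.83 and 0.80). In *vtc3-3* the sign depended on wild-type replicate 1, with -0.50 ± 0.62 for *GSTU4* and -0.64 ± 0.64 for *GSTU8* with all libraries (adjusted p = 0.72 and 0.68), and 0.31 ± 0.41 and 0.44 ± 0.44 without it (adjusted p = 0.90 and 0.85).

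The high and low libraries were the same for both genes. On the log2 CPM scale, *vtc2-4* replicate 1 stood 0.55 above the 9-library mean for *GSTU4* and 0.25 above it for *GSTU8*, whereas *vtc2-4* replicates 2 and 3 stood at -1.22 and -1.12 for *GSTU4* and at -0.90 and -1.18 for *GSTU8*. Wild-type replicate 3 stood at -0.71 for *GSTU4* and -0.97 for *GSTU8*. The root mean square difference between the 2 profiles was 0.21 over 9 libraries and 0.21 without wild-type replicate 1, and *GSTU4* was the nearest to *GSTU8* of the genes compared. The profiles themselves had a root mean square deviation of 0.87 and 0.88 over 9 libraries. The 2 genes lie on different chromosomes. Their coding sequences share 65.6% of aligned bases.

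**Figure D2:**
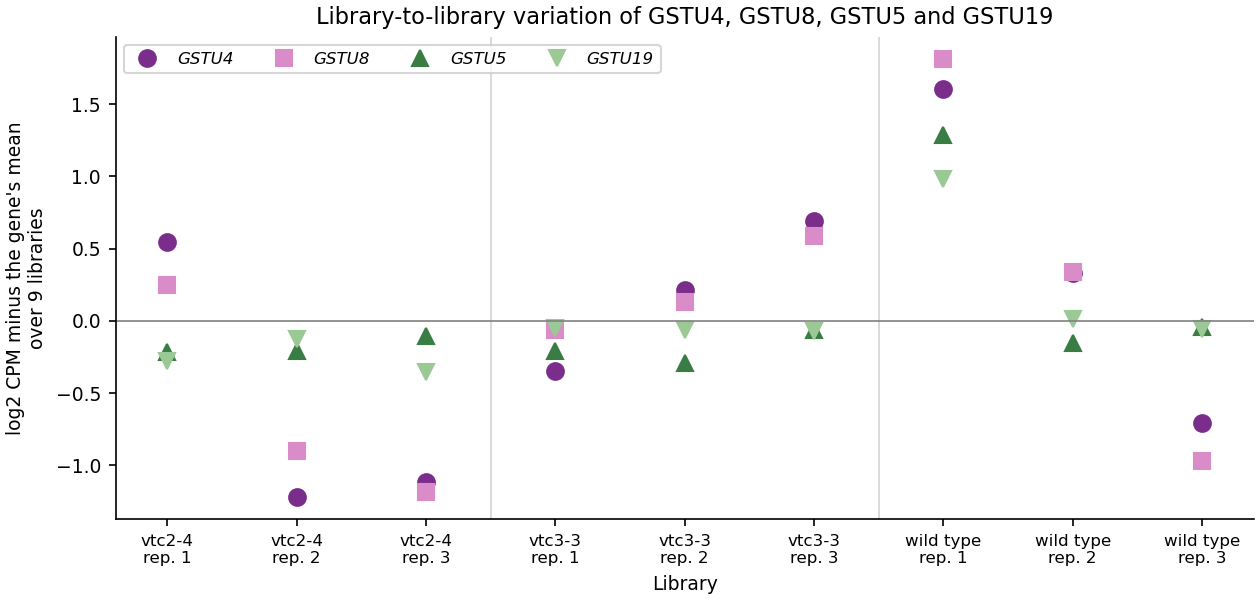
Deviation of log2 CPM (counts scaled to library size) from each gene's own 9-library mean, for each of 9 libraries grouped as *vtc2-4*, *vtc3-3* and wild type. *GSTU4* and *GSTU8* lie close to each other in every library and spread by more than 1 log2 unit among *vtc2-4* replicates, while *GSTU5* and *GSTU19* stay near 0 except in wild-type replicate 1.

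The comparison of *vtc3-3* with the wild type asks the same of the second mutant. All 8 tested genes again had a negative log2 fold change, with a median of -0.67, against 0.00 over all genes and -0.25 over the genes of the same exon length, and without wild-type replicate 1 the median was -0.16 with 6 of 8 genes below 0. None passed an adjusted p of 0.05 by edgeR's quasi-likelihood test, 3 had an unadjusted p under 0.05 as did 6.23% of all genes, and 0.0173% of all genes passed lower and 0.00575% higher. DESeq2 called 0 of the genes, and edgeR's exact test and limma voom with library quality weights called 1, *GSTU1*, where 0.0309%, 0.0518% and 0.368% of all genes passed lower. Without wild-type replicate 1, *GSTU1* alone passed, lower in *vtc3-3*, where 0.391% of all genes passed lower and 0.289% higher. The *vtc3-3* libraries lay entirely below the wild type for *GSTU1*, *GSTU2* and *GSTU7*, 3 of 8, as they did for 5.95% of all tested genes.

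The mutants were then set against each other, a comparison without the wild-type libraries but on mutant libraries whose values were known when the set was chosen. None of the 8 genes passed with all 9 libraries in the fit, where 1 had an unadjusted p under 0.05 as did 5.1% of all genes, and 0.282% of all genes passed lower and 0.069% higher in *vtc3-3*. DESeq2 and the exact test called 0, and limma voom with quality weights called 2, *GSTU2* and *GSTU24*, both higher in *vtc3-3*, where 0.214%, 0.242% and 3.07% of all genes passed higher by the 3 tools. Without wild-type replicate 1, which takes no part in this contrast but enters the estimate of the spread, the scaling and the filter, *GSTU19* passed, with a log2 fold change of 0.19 ± 0.06 (adjusted p = 0.047), where 3.15% of all genes passed higher and 3.6% lower. Its 3 *vtc3-3* libraries lay above the 3 *vtc2-4* libraries, as did those of *GSTU2* and *GSTU24*, 3 of 8, whereas 11.3% of all tested genes showed this. For *GSTU2* the log2 fold change was 1.35 ± 0.46 with all libraries (adjusted p = 0.63) and 1.35 ± 0.46 without wild-type replicate 1 (adjusted p = 0.095), and for *GSTU24* it was 0.41 ± 0.20 (adjusted p = 1.00) and 0.41 ± 0.13 (adjusted p = 0.060). *GSTU1* and *GSTU5* were the 2 of 8 with a value below 0, at -0.17 ± 0.35 and -0.01 ± 0.33 with all libraries.

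**Figure D3:**
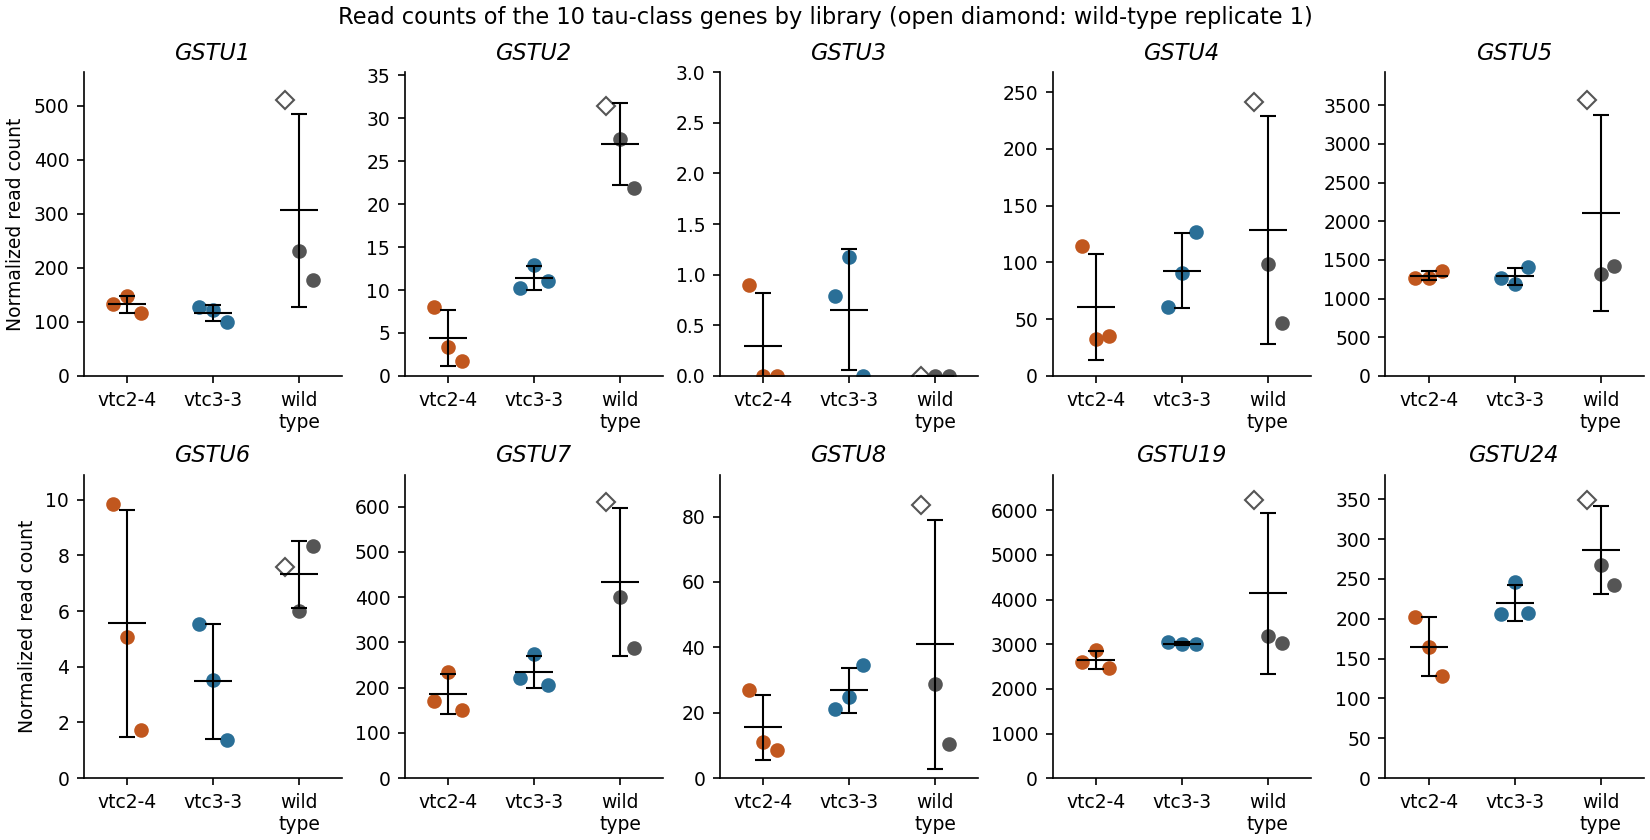
Normalized read counts of each of the 10 genes in the 9 libraries, by genotype (*vtc2-4*, *vtc3-3* and wild type from left to right), with the mean (bar) and SD of 3 libraries; each vertical axis starts at 0 and has its own scale. Wild-type replicate 1, the open diamond, is the highest library for all of the genes but *GSTU3* and *GSTU6*. For *GSTU1*, *GSTU2* and *GSTU7* the 3 libraries of each mutant lie below all 3 wild-type libraries, which both comparisons share. How often other genes separate for both mutants at once was not counted.

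**Figure D4:**
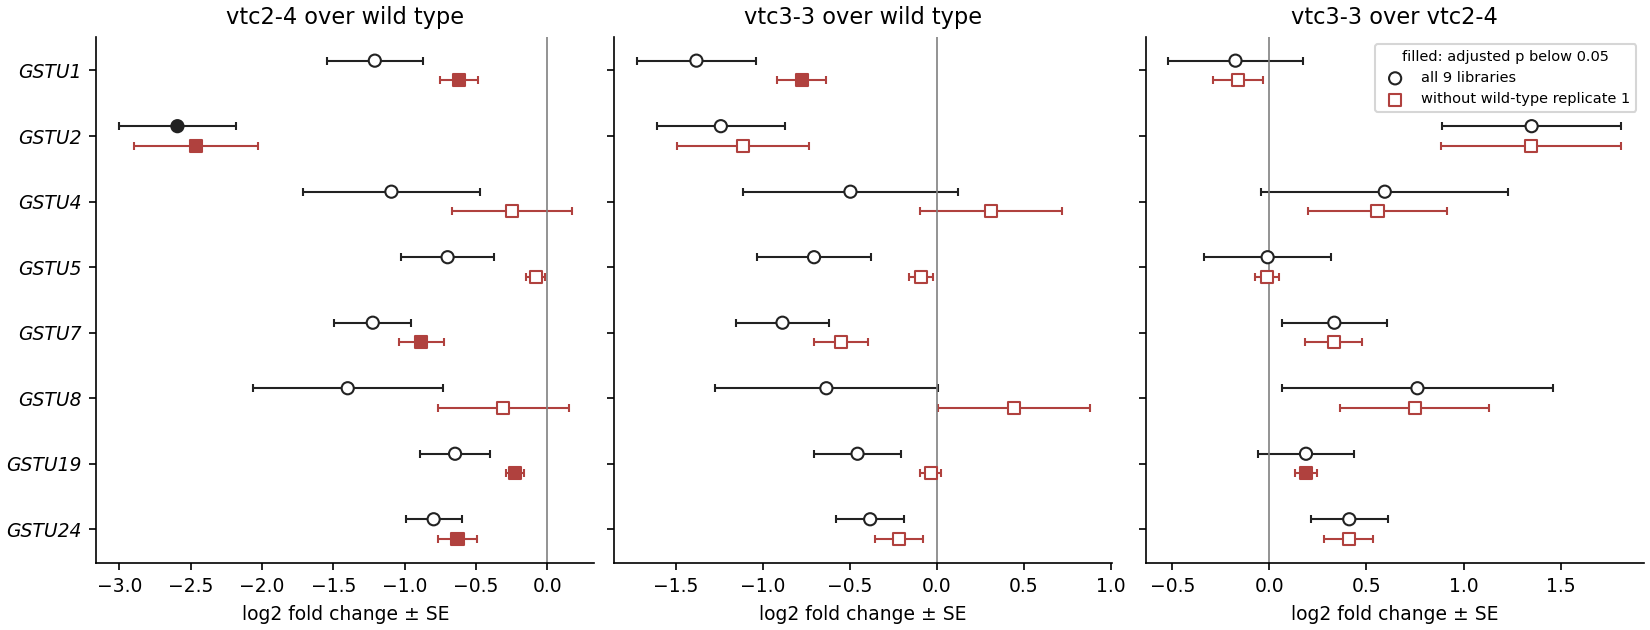
Log2 fold change with its SE for the 8 tested genes in 3 comparisons, with all 9 libraries (circles) and without wild-type replicate 1 (squares); filled symbols have an adjusted p below 0.05. For *GSTU2* in *vtc2-4* the values are -2.59 and -2.46, while for *GSTU4* and *GSTU8* in *vtc3-3* the value lies below 0 with all libraries and above 0 without that replicate.

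Wild-type replicate 1 was read against genes of the same length. The ratio of its normalized count to the mean of wild-type replicates 2 and 3 had a median of 1.64 over the 1455 genes with 820 to 1003 exon bases, with the middle 90% between 0.59 and 2.93. The ratio was 1.27 for *GSTU2*, 1.36 for *GSTU24*, 1.77 for *GSTU7*, 2.01 for *GSTU19*, 2.49 for *GSTU1*, 2.60 for *GSTU5*, 3.31 for *GSTU4* and 4.26 for *GSTU8*. *GSTU4* and *GSTU8* thus lay above that range and the other 6 genes within it. Removing the length trend from the counts of all libraries left the log2 fold change in *vtc2-4* at -2.42 ± 0.39 for *GSTU2* (adjusted p = 0.015) and -0.99 ± 0.19 for *GSTU7* (adjusted p = 0.034), which passed, and at -0.98 ± 0.23 for *GSTU1* (adjusted p = 0.079), which did not. In that fit 0.472% of all genes passed lower.

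The genes on either side of the cluster are given for comparison, and whether the low values ran along the chromosome was not tested. On the *GSTU7* side, *TOPP1* (AT2G29400), a protein phosphatase subunit, had 383, 448 and 401 reads in *vtc2-4*, 464, 317 and 276 in *vtc3-3* and 307, 310 and 373 in the wild type, with a log2 fold change of -0.03 ± 0.11 in *vtc2-4* and 0.03 ± 0.11 in *vtc3-3* with all libraries, and -0.09 ± 0.08 and -0.03 ± 0.08 without wild-type replicate 1. *SMO2-2* (AT2G29390), a sterol methyl oxidase, had -0.02 ± 0.17 in *vtc2-4* and 0.08 ± 0.17 in *vtc3-3* with all libraries, and -0.17 ± 0.12 and -0.07 ± 0.12 without it. Neither gene passed in any of these fits. *MTPB1*, *HAI3* and AT2G29370, with at most 11 reads in a library, were not tested.

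On the *GSTU1* side the nearest gene, AT2G29500, is annotated as a small heat shock protein, and it had 36, 41 and 27 reads in *vtc2-4*, 34, 36 and 48 in *vtc3-3* and 295, 54 and 64 in the wild type. Its log2 fold change in *vtc2-4* was -2.32 ± 0.62 (adjusted p = 0.22) with all libraries and -1.12 ± 0.27 (adjusted p = 0.014) without wild-type replicate 1. In *vtc3-3* it was -1.79 ± 0.62 (adjusted p = 0.63) and -0.63 ± 0.26 (adjusted p = 0.46). The next 4 genes with reads, AT2G29510, *AtIPCS3*, *TIM10* and *RPC14*, had log2 fold changes of 0.14, -0.53, -0.53 and -0.54 in *vtc2-4* and -0.02, -0.34, -0.52 and -0.36 in *vtc3-3*, in that order, with all 9 libraries. Without wild-type replicate 1 the values lay between -0.08 and 0.07 in *vtc2-4* and between -0.24 and 0.14 in *vtc3-3*, and none passed in either fit. Of the genes annotated inside the cluster, AT2G29430 had 1 read in the series and AT2G29452 had 0.

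The rest of the pathway was taken from 5 lists of 69 genes, 55 of them tested. With all 9 libraries none passed in any comparison by edgeR's quasi-likelihood test. In *vtc2-4*, 14 had an unadjusted p under 0.05, as did 9.9% of all genes. DESeq2, which took 67 of the 69 genes, and the exact test called 2 each, and limma voom with quality weights called 14, all lower. Of all genes, 0.729%, 0.633% and 2.8% passed lower by these tools. In *vtc3-3*, 9 had an unadjusted p under 0.05, as did 6.23% of all genes, and DESeq2, the exact test and limma voom called 0, 0 and 4. Of the 4, 2 were lower and 2 higher, where limma voom called 64 of 17388 genes lower and 49 higher. In *vtc3-3* against *vtc2-4*, 4 had an unadjusted p under 0.05, as did 5.1% of all genes, and the same tools called 0, 0 and 7. Of the 7, 1 was lower and 6 higher, where limma voom called 572 of 17388 genes lower and 533 higher. Without wild-type replicate 1, 13 passed lower and 0 higher in *vtc2-4*, where 3.01% of all genes passed lower and 3.03% higher. In *vtc3-3* 1 passed lower and 2 higher in that fit, where 0.391% of all genes passed lower and 0.289% higher. For *vtc3-3* against *vtc2-4*, 1 passed lower and 7 higher in that fit, where 3.6% of all genes passed lower and 3.15% higher.

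Of 12 tested tau genes outside the set, *GSTU16* and *GSTU17* (*ERD9*, a gene first found as dehydration-responsive) passed lower in *vtc2-4* without wild-type replicate 1, at -0.46 ± 0.11 and -0.34 ± 0.09 (adjusted p = 0.018 and 0.035), with a list median of 0.09. In *vtc3-3* none of the 12 passed, with 2 at an unadjusted p under 0.05, against 1563 of 17631 genes tested. Against *vtc2-4*, *GSTU17* passed higher in *vtc3-3* (0.29 ± 0.08, adjusted p = 0.040) and *GSTU18* lower (-0.39 ± 0.10, adjusted p = 0.024).

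Of 9 tested phi genes, *GSTF8*, a widely used early stress marker, passed lower in *vtc2-4* without wild-type replicate 1. It had 871, 1032 and 922 normalized counts in *vtc2-4* and 1203, 1302 and 1486 in *vtc3-3*, against 801, 1436 and 1227 in the wild type, and its log2 fold change was -0.50 ± 0.09 in *vtc2-4* (adjusted p = 9.0e-04) and 0.49 ± 0.08 in *vtc3-3* against *vtc2-4* (adjusted p = 4.0e-04). At 1734 exon bases it is longer than the tau genes, and wild-type replicate 1 was its lowest library. *GSTF6*, which takes part in camalexin synthesis, and its close paralogue *GSTF7*, whose reads may be partly shared, passed higher in *vtc3-3*, at 1.13 ± 0.19 (adjusted p = 0.0068) and 2.01 ± 0.39 (adjusted p = 0.017). *GSTF7* had 39.4, 85.8 and 63.5 normalized counts in *vtc3-3*, against 87.9, 16.8 and 13.6 in the wild type, and *GSTF6* had 113, 128 and 183 in *vtc3-3*, against 246, 60.0 and 65.7 in the wild type, so that both calls rest on leaving out wild-type replicate 1. Against *vtc2-4*, *vtc3-3* was higher in *GSTF6* (0.92 ± 0.16, adjusted p = 8.9e-04) and *GSTF7* (1.18 ± 0.29, adjusted p = 0.014).

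Among 10 tested genes of the zeta, theta, lambda, dehydroascorbate reductase and related classes, *GSTZ1*, the maleylacetoacetate isomerase of tyrosine breakdown, passed lower in *vtc2-4* without wild-type replicate 1 (-0.65 ± 0.10, adjusted p = 1.5e-04) and higher in *vtc3-3* against *vtc2-4* (0.37 ± 0.09, adjusted p = 0.011). No dehydroascorbate reductase passed. Without wild-type replicate 1, where 3.01% of all genes passed lower in *vtc2-4*, 3 of 8 genes of glutathione synthesis and conjugate transport did. They were *GR1*, the extraplastidic glutathione reductase, and the vacuolar conjugate transporters *ABCC1* and *ABCC2*. Wild-type replicate 1 had 976 normalized counts of *ABCC1*, against 1183, 1253 and 1147 in *vtc2-4*. For *ABCC2* it had 752, against 1008, 1092 and 1007. The *ABCC1* and *ABCC2* calls thus rest on leaving this library out. *GR1* had 1225, 1331 and 1342 normalized counts in *vtc2-4* and 1726, 1728 and 1644 in *vtc3-3*, against 1460, 1938 and 1829 in the wild type. Its log2 fold change was -0.53 ± 0.06 (adjusted p = 5.6e-06), and those of *ABCC2* and *ABCC1* were -0.47 ± 0.07 (adjusted p = 3.5e-04) and -0.29 ± 0.06 (adjusted p = 0.0062). In *vtc3-3* none of these 8 passed, with 5 at an unadjusted p under 0.05, against 1563 of 17631 genes tested. *GR1* was higher in *vtc3-3* than in *vtc2-4* (0.39 ± 0.05, adjusted p = 8.3e-05).

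The xenobiotic and oxylipin detoxification list holds targets and factors of the TGA pathway. Without wild-type replicate 1, where 3.01% of all genes passed lower in *vtc2-4*, the list median was -0.40. Of the 16 tested genes of the list, 6 passed lower in *vtc2-4* in that fit. They were the transcription factors *NAC032* (-0.88 ± 0.15, adjusted p = 9.1e-04) and *NAC102* (-0.48 ± 0.11, adjusted p = 0.0079), the cytochrome P450 *CYP81D11* (-1.10 ± 0.30, adjusted p = 0.032), the oxophytodienoate reductase homologue *OPR2* (-0.94 ± 0.27, adjusted p = 0.047), the glucosyltransferase *UGT74E2* (-0.53 ± 0.14, adjusted p = 0.028) and the transporter *ABCC3* (-0.37 ± 0.10, adjusted p = 0.039). *NAC102* passed lower in *vtc3-3* as well (-0.64 ± 0.11, adjusted p = 0.0075), the only one of the 16 to do so. *NAC032* had 106, 125 and 126 normalized counts in *vtc2-4* and 174, 133 and 97.9 in *vtc3-3*, against 227, 221 and 217 in the wild type, where wild-type replicate 1 did not stand apart. For *UGT74E2* that library had 309 normalized counts, against 429, 304 and 378 in *vtc2-4*. For *ABCC3* it had 335, against 427, 353 and 450. The *UGT74E2* and *ABCC3* calls in *vtc2-4* thus rest on leaving wild-type replicate 1 out. *ABCC3* passed higher in *vtc3-3* against *vtc2-4* (0.41 ± 0.09, adjusted p = 0.0070).

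The extremes of the 5 lists with all 9 libraries, none of them past the threshold, were as follows in log2 fold change. In *vtc2-4* against the wild type, the other tau genes ran between *GSTU23* (-1.10) and *GSTU9* (0.57), and the phi genes between *GSTF12* (-1.20) and *GSTF9* (0.13). The other classes ran between *GSTZ1* (-0.94) and *TCHQD* (0.08), glutathione synthesis and transport between *GR1* (-0.42) and *GGT1* (0.28), and the xenobiotic list between *CYP81D11* (-1.13) and *CYP81D8* (0.90). In *vtc3-3* against the wild type, the same lists ran between *GSTU16* (-0.77) and *GSTU28* (-0.0011), *GSTF12* (-0.96) and *GSTF7* (0.65), *DHAR2* (-0.72) and *TCHQD* (0.31), *GSH2* (-0.53) and *GR2* (0.19), and *CYP81D11* (-0.94) and *CYP81D8* (0.59). In *vtc3-3* against *vtc2-4* they ran between *GSTU9* (-1.28) and *GSTU23* (0.42), *GSTF4* (-0.28) and *GSTF7* (1.21), *GSTT2* (-0.17) and *GSTZ1* (0.36), *GGT1* (-0.13) and *GR1* (0.39), and *DTX3* (-0.45) and *OPR2* (0.61). The list medians lay between -0.33 and -0.08 in *vtc2-4* against the wild type, between -0.35 and 0.0047 in *vtc3-3* against the wild type and between -0.03 and 0.24 in *vtc3-3* against *vtc2-4*.

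Genes with the most similar profile were sought among tested genes with a mean of at least 50 counts, by the root mean square difference of centred log2 CPM, as a description without a test. Over 9 libraries the value follows wild-type replicate 1, and the genes nearest to *GSTU1* were *CP1* (AT5G49480, 0.18), AT5G63135 (0.20) and AT4G24700 (0.22). Over the 8 other libraries they were the glucosyltransferase *UGT75B1* (AT1G05560, 0.09), *NAC102* (AT5G63790, 0.10) and *OCT5* (AT1G79410, 0.11), against a deviation of 0.35 for *GSTU1* itself. *GSTU7* was nearest to *CYP89A9* (0.09), *COL1* (0.11) and AT5G61820 (0.15) over 8 libraries, and to *SWEET1* (0.18), *CP1* (0.19) and AT5G55620 (0.20) over 9. AT1G10585 and AT1G09500 were among the 3 nearest to *GSTU2* with either choice (0.39 and 0.39 over 9 libraries, 0.41 and 0.40 over 8), beside *GGH1* (0.45) over 9 and *SUFE2* (0.39) over 8. *GSTU24* was nearest to AT1G63840, *OST1* and *BZIP9* (0.16 each) over 9 libraries and to AT1G61310, AT1G02020 and *SLAH3* (0.11 to 0.12) over 8. For *GSTU19* the 3 nearest were *RAB18* (AT1G43890), *SDR1* and *ARFA1E* over 9 libraries and *ARPC1A*, *CIPK7* and AT5G51770 over 8, all within 0.04 to 0.06. The lists for 9 and 8 libraries thus shared 2 genes for *GSTU2* and 0 for the other 4.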

How the data were processed

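RNA-seq counts of shoots from 9 libraries (3 per genotype) were used. Per the study's methods, the authors prepared libraries with the TruSeq RNA v2 kit, sequenced them on a MiSeq and mapped and counted reads with CLC Genomics Workbench 9.5.2. The build they mapped to is not given in the sources used here. The deposited count columns hold total, unique, exon, intron and exon-exon reads per gene. The RPKM values are those the authors deposited, computed from exon reads and exon length. Exon lengths and positions, deposited by the authors as plain numbers, were treated as a score in name only and used as gene annotation in bases. Of 171 per-library columns, 113 were not used here.

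Total gene reads were tested in R 4.3.3 with edgeR 4.0.16 (TMM, filterByExpr, quasi-likelihood test, all 9 libraries, genotype as the factor), with Benjamini-Hochberg adjustment over all 17388 genes tested and a threshold of 0.05. The SE of a log2 fold change is its value divided by the root of the F statistic. The table held no unassigned reads. DESeq2 1.42.0, limma 3.58.1, other normalizations, unique or exon reads, removal of the trend with exon length and leaving out each library were alternatives. Sequences come from the TAIR10.1 genome of RefSeq, aligned with Biopython 1.88. All 28009 matched identifiers overlapped their TAIR10.1 position, and 14056 shared a start or end with it, so upstream windows refer to TAIR10.1 models.

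The 10 genes, the lists and the tests were chosen with earlier results of these data known. Named genes are the 10, the 2 targeted genes, list genes past the threshold with or without wild-type replicate 1 and list extremes with all 9 libraries, the 5 nearest neighbours with reads on each side, and the 3 most similar genes. Same-numbered libraries did not deviate together (correlations of -0.02 to 0.09), so replicate numbers were not taken as pairs. Counting intervals and floors cover counting error only. A further root marker is not reported here.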

Additional observations from a re-analysis of the deposited data

How the results depend on the processing

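For *vtc2-4* against the wild type, the count of 1 called tau gene was 4 with DESeq2, 4 with the exact test and 4 with limma voom quality weights. Of all genes, 0.729%, 0.633% and 2.8% were called lower in these fits. The count was 2 with the length trend removed (*GSTU2* and *GSTU7*) and 5 with uniquely mapped reads and no wild-type replicate 1. It was also 5 with the length trend removed and no wild-type replicate 1, an alternative chosen after seeing the data. It was 0 with exon reads and 0 with only the 2 genotypes compared. The share of all genes called lower was 0.472% with the length trend removed, 3.13% and 2.88% in the 2 settings with 5 calls, 0.152% with exon reads and 0.029% with only the 2 genotypes compared. Leaving out 1 library gave 0 to 5, the 5 without wild-type replicate 1 (3.01% of all genes called lower) and 2 without wild-type replicate 3 (0.13%). The count was 0 without wild-type replicate 2, *vtc2-4* replicate 2 or 3, or any *vtc3-3* replicate, where 0.0285 to 0.0958% of all genes were called lower. For *vtc3-3* against the wild type, the count of 0 became 1 (*GSTU1*) with the exact test, limma voom quality weights, uniquely mapped reads and no wild-type replicate 1, and the length trend removed and no wild-type replicate 1. Of all genes, 0.0518%, 0.368%, 0.473% and 0.386% were called lower in these settings, in that order. Leaving out 1 library gave 0 to 1, the 1 without wild-type replicate 1, where 0.391% of all genes were called lower. For *vtc3-3* against *vtc2-4*, the count of 0 became 2 with uniquely mapped reads and no wild-type replicate 1 (*GSTU19* and *GSTU24*), 2 with limma voom quality weights (*GSTU2* and *GSTU24*), 2 with the length trend removed and no wild-type replicate 1 (*GSTU19* and *GSTU24*) and 1 with only the 2 genotypes compared (*GSTU19*), where 3.28%, 3.07%, 3.09% and 3.15% of all genes were called higher in these 4 settings, and leaving out 1 library gave 0 to 1. With the replicate number as a block the counts were 1, 0 and 0, the same as without it, and the numbers do not pair the samples. For *vtc2-4* against the wild type, 6 of 22 alternatives kept the count of 1. In *vtc3-3* against the wild type and against *vtc2-4*, 17 of 22 alternatives each kept the count of 0.

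The log2 fold change turned positive in *vtc3-3* against the wild type for *GSTU4* (0.31 with uniquely mapped reads and no wild-type replicate 1, 0.23 with quality weights, 0.31 without wild-type replicate 1, 0.30 with the length trend removed as well) and for *GSTU8* (0.44, 0.43, 0.44 and 0.43 with the same settings). For *GSTU5* in *vtc3-3* against *vtc2-4*, where the value was -0.01, it was 0.00025 with library size alone, 0.011 with the length trend removed, 0.0080 with wild-type replicate 1 left out as well, and 0.0019 to 0.043 without *vtc3-3* replicate 1, *vtc3-3* replicate 2 or *vtc2-4* replicate 3. Leaving out 1 library gave -0.91 to 0.31 for *GSTU4*, -1.11 to 0.44 for *GSTU8* and -0.074 to 0.043 for *GSTU5* in these comparisons. The cause was not tested. *GSTU2*, *GSTU3*, *GSTU6* and *GSTU8* are limited by depth, with 120, 3, 50 and 237 reads over 9 libraries.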

Other observations

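*GSTU4* and *GSTU8* had further genes near them, sought after their values were seen. Candidates were tested genes with a mean of at least 50 counts, which leaves out *GSTU8*, itself 0.21 from *GSTU4* in root mean square difference of log2 CPM. Over the 8 libraries without wild-type replicate 1, the candidates nearest to *GSTU4* were *SRG3* (AT3G02040, 0.38), *PS2* (AT1G73010, 0.44) and *SPX1* (AT5G20150, 0.46). Those nearest to *GSTU8* were *GSTU4* (0.21), *SRG3* (0.32) and *SPX1* (0.35). *PS2* and *SPX1* are known as genes induced by phosphate starvation. *PS2* had 82.5, 27.1 and 28.7 normalized counts in *vtc2-4*, 80.5, 107 and 178 in *vtc3-3* and 17.4, 52.8 and 55.3 in the wild type, and was thus high in the same *vtc2-4* and *vtc3-3* libraries as *GSTU4* but low in wild-type replicate 1. *SPX1* had 178, 145 and 109 in *vtc2-4*, 164, 195 and 246 in *vtc3-3* and 259, 160 and 104 in the wild type, with the order of *GSTU8* in each genotype. Over all 9 libraries the candidates nearest to *GSTU4* were the dehydrin *LTI30* (0.49), AT3G26960 (0.51) and *SAG21* (0.53), where wild-type replicate 1 weighs in the measure. The phosphate content of the plants or medium is not part of these data, and no test was made.

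*GSTU4* and *GSTU8* had a steady ratio within libraries. *GSTU4* had 427, 292 and 400 reads per 100 *GSTU8* reads in *vtc2-4*, 285, 367 and 368 in *vtc3-3* and 288, 342 and 450 in the wild type, so the ratio varied between 285 and 450 while normalized *GSTU4* counts varied 7.48-fold over the same 9 libraries. *GSTU2* per 100 *GSTU1* reads, the 2 neighbours in the cluster, was 6.04, 2.30 and 1.49 in *vtc2-4* and 8.02, 10.6 and 11 in *vtc3-3*, against 6.17, 11.9 and 12.4 in the wild type. All 3 *vtc2-4* libraries lay below every library of the other genotypes, 1 of them narrowly. The *vtc2-4* values rest on 9, 4 and 2 *GSTU2* reads, and how often other gene pairs separate in this way was not counted.

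The share of intron reads differed between the genes. It was 4.17% of 120 reads for *GSTU2*, 3.27% of 2478 for *GSTU7*, 1.69% of 237 for *GSTU8* and 1.60% of 1629 for *GSTU1*, against 0.66% of 1964 for *GSTU24*, 0.62% of 801 for *GSTU4*, 0.47% of 13859 for *GSTU5* and 0.22% of 28976 for *GSTU19*.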
